A study of Mus musculus with 6 samples.

Results

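Mitosis was followed through 42 mitosis and spindle genes, from the cyclin-dependent kinase CDK1 and its partners to the kinetochore, the spindle motors and the machinery of cytokinesis. The genes were chosen by name, with earlier results of these data known. All 42 were found among the 23827 genes of the deposited table, by the symbol of each row. The RNA was what ribosomes of brain endothelial cells held, pulled down by TRAP (translating ribosome affinity purification) from C57BL/6 x 129/Sv mouse embryos at embryonic day E14.5 and sequenced. Libraries called Axin1 here came from 3 biological replicates carrying R26 Axin1 IresLacZ, an overexpression allele of Axin1 with a LacZ reporter at the Rosa26 locus. Their controls were 3 wild-type biological replicates. Tamoxifen had been given to the mothers of all 6 at E12.5. AXIN1 is the scaffold on which beta-catenin is marked for destruction, so the allele is a means of lowering Wnt/beta-catenin signalling. The driver of recombination and the number of embryos in each library are stated nowhere in the sources used here, and no label says that the replicates came from separate litters.

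Mitosis is driven by CDK1 bound to A- and B-type cyclins. Most genes needed to enter and finish it are kept silent outside G2 and M phase and are transcribed together there, through repressor and activator complexes that include the DREAM complex, MYBL2 and FOXM1. The proteins are then removed in order by the anaphase-promoting complex, a ubiquitin ligase. In the embryonic brain the vessels grow by endothelial proliferation while neural progenitors in the ventricular zone are dividing too, so these transcripts mark dividing cells of any kind and not endothelium in particular.

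The libraries held 21076920 to 37040176 recovered reads with Axin1 overexpression and 53524185 to 62507513 in wild type, a ratio of 1.84 of the wild-type mean to the Axin1 mean. The gene Axin1 had 37.8, 38.1 and 37.4 RPKM in Axin1 libraries 1 to 3, against 13.6, 14.4 and 15.1 RPKM in wild-type libraries 1 to 3, a change of 1.34 on the log2 scale (SE 0.06; limma, adjusted p = 2.25e-05). The column names carry the tag RS216 for every Axin1 library and RS148 for every wild-type library. What the tags stand for is stated nowhere in the sources used here. If they mark runs, run and genotype cannot be told apart. Values are RPKM, reads scaled by transcript length and sequencing depth, and changes are differences of log2(RPKM + 1), Axin1 minus wild type, tested with limma over the 12493 genes that averaged 1 RPKM or more. All 42 mitosis genes passed that filter. A gene is called where its Benjamini-Hochberg adjusted p, two-sided and over all 12493 genes, was under 0.05. Endothelial markers were high in every library: Cdh5 (VE-cadherin) had 451, 354 and 378 RPKM in Axin1 libraries 1 to 3, against 368, 348 and 393 RPKM in wild-type libraries 1 to 3. Summed over 12 endothelial markers, the level was 2744 to 3017 RPKM in Axin1 libraries and 2757 to 2836 RPKM in wild-type libraries. Within this sum Emcn rose, from a mean of 136 RPKM in wild type to 284 RPKM in Axin1. The median log2 fold change of the 12 markers was -0.08, and 4 of the 12 were above 0.

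Genes transcribed in G2 and M phase are known for 2 short promoter elements, and 4 promoters are shown to let these be seen in place: the CHR (cell cycle genes homology region, TTTGAA), read by the MuvB core of the DREAM complex, and the CCAAT box, bound by NF-Y. RefSeq windows from 250 bases before to 50 bases after the annotated start (GRCm38.p6) were matched for 35 of the 42 genes by symbol. TTTGAA on either strand lay in the window of 26 of these 35 genes (74.3%), against 5466 of 27025 genes in all (20.2%), 29 of 73 other mitosis genes (39.7%) and 4 of 30 DNA replication genes (13.3%). In 24 of the 26 the copy nearest to the start began within 60 bases of it, a distance chosen after the positions were seen. CCAAT on either strand was in 26 of 35 (74.3%), against 41.1% of all genes. The 4 windows shown are those of the called genes with the lowest limma p among those that hold TTTGAA: Cdca8 at chr4:124936868-124937167 on the minus strand, Ube2c at chr2:164769679-164769978 on the plus strand, Ndc80 at chr17:71526808-71527107 on the minus strand, Prc1 at chr7:80294226-80294525 on the plus strand. Each reads 5′ to 3′ along its gene, with TTTGAA (or TTCAAA, its other strand) and CCAAT (or ATTGG) in capitals; where copies overlap or touch, the capitals run on.
Cdca8: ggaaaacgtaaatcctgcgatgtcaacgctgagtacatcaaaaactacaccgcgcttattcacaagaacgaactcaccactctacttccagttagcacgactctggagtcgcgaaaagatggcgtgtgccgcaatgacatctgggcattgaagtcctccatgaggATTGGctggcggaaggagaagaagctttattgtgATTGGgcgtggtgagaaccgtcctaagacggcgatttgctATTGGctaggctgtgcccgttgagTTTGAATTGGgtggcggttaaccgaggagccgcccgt
Ube2c: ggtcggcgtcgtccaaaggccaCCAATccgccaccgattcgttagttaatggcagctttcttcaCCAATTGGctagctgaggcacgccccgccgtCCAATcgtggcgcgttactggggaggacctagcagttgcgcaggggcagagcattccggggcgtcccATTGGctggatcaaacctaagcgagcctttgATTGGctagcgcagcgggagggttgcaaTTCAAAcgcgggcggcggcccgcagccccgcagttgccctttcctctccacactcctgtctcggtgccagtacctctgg
Ndc80: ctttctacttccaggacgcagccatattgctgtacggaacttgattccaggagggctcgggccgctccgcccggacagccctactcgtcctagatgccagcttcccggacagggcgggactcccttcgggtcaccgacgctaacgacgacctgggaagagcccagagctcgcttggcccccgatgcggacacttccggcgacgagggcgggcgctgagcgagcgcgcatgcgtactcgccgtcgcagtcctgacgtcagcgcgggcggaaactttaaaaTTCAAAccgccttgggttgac
Prc1: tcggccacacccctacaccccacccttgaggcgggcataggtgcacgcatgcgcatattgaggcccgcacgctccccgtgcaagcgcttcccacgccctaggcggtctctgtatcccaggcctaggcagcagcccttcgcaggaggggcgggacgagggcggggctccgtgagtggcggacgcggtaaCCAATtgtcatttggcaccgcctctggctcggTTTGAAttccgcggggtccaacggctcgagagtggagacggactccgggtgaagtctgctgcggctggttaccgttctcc
In Cdca8 the TTTGAA begins 13 bases after the annotated start and overlaps a CCAAT box. Ndc80 has its copy 29 bases after the start, on the other strand and with no CCAAT in the window. Ube2c and Prc1 have theirs 29 and 30 bases before the start, in Ube2c on the other strand. Counted from another annotated start of Prc1, whose window is not shown, its TTTGAA begins 5 bases before the start. A match in these letters is not a bound site. Among the mitosis genes that were called higher, 22 of 29 held TTTGAA, and among those not called 4 of 6 did.

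Mitosis genes were higher with Axin1 overexpression in nearly every step of division, by small amounts. Among the 42, limma called 34 higher and 0 lower, where it called 14.4% of all genes tested higher, 8.37% lower and 22.8% in either direction; at an unadjusted p under 0.05 still 0 were lower. In the authors' deposited table, made with DESeq, 19 of the 42 had an adjusted p under 0.05 with the higher mean in Axin1, where 3.91% of its genes did. An adjusted p under 0.05 with the higher mean in wild type was found for 0 of the 42, against 4.97% of its genes. The called genes had 1.18 to 1.45 times as much RPKM in the Axin1 mean as in the wild-type mean. The median log2 fold change of the 42 was 0.33, against 0.04 over all genes tested, and 41 of 42 were above 0, where 58.8% of all genes were. The lowest Axin1 library was above the highest wild-type library for 36 of 42 genes, where this held for 28.0% of all genes. Of the 34 calls, 12 held under each of 17 other settings (Cdc25c, Ccnb1, Tpx2, Nuf2, Birc5, Cdca8, Ndc80, Prc1, Kif23, Cenpf, Cenpe and Kif2c), while 22 were lost under at least 1. Leaving out Axin1 replicate 2 ended 19 of the 34 calls and left 15 (4.71% of all genes were called then); 19 were called without Axin1 replicate 3 (6.41% of all genes) and 21 without wild-type replicate 1 (9.49% of all genes). With libraries rescaled by the median of ratios, 25 were called (9.99% of all genes). That rescaling also turned the balance over all genes tested, to 1248 higher and 1392 lower, against 1800 and 1046 without it; the upper quartile gave 1391 and 1276, with 27 mitosis genes called (11.1% of all genes). When GC content and transcript length were regressed out by loess (the GC and length correction), 17 were called (7.79% of all genes, with 973 higher and 846 lower) and the median was 0.25. In bulk RNA such as this, more dividing cells and more of these transcripts per dividing cell cannot be told apart.

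**Figure D1:**
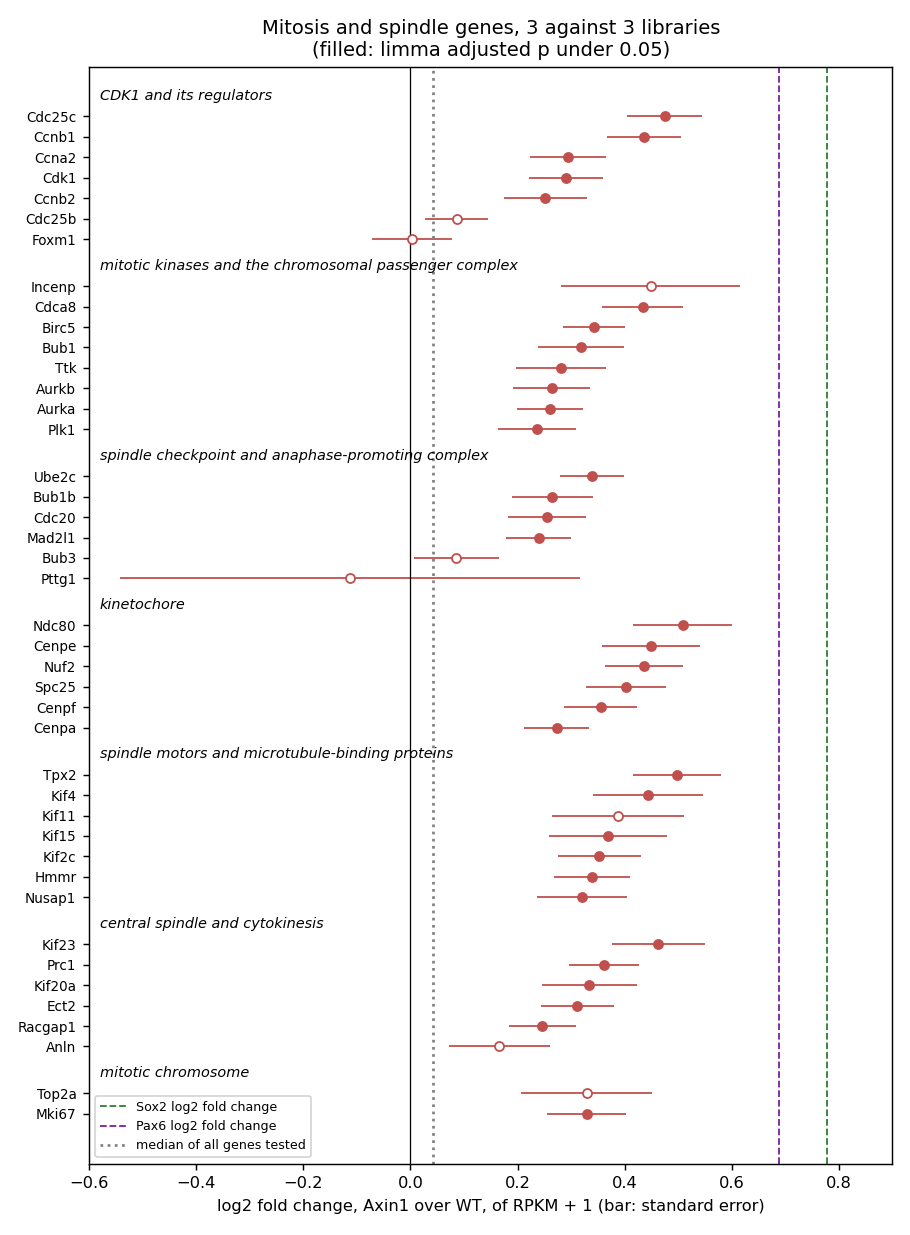
Log2 fold change of RPKM + 1, Axin1 over wild type, of each of the 42 mitosis and spindle genes, grouped by role, with the standard error as bars (3 against 3 libraries); filled points have a limma adjusted p under 0.05. The points lie between -0.11 for Pttg1 and 0.51 for Ndc80, all to the left of the dashed lines for Pax6 (0.69) and Sox2 (0.78), and the dotted line is the median of all genes tested (0.04).

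Of the 7 genes for CDK1 and its regulators, 5 were higher. Cdc25c, a phosphatase that removes inhibitory phosphates from CDK1, had 12.4, 12.8 and 13.7 RPKM in Axin1 libraries 1 to 3, against 8.75, 8.64 and 9.80 RPKM in wild-type libraries 1 to 3. The lowest Axin1 library stood above the highest wild-type library, with a change of 0.48 on the log2 scale (SE 0.07; limma, adjusted p = 0.00363). Ccnb1, which encodes cyclin B1, the main partner of CDK1 at mitotic entry, had 7.56, 8.22 and 8.55 RPKM in Axin1 libraries 1 to 3, against 5.95, 5.36 and 5.89 RPKM in wild-type libraries 1 to 3. Again the groups were apart, with a change of 0.44 on the log2 scale (SE 0.07; limma, adjusted p = 0.00465). Cdk1 itself was at a higher level and moved less, with 56.0, 59.6 and 60.6 RPKM in Axin1 libraries 1 to 3, against 47.1, 45.3 and 51.1 RPKM in wild-type libraries 1 to 3. Its change of 0.29 on the log2 scale (SE 0.07; limma, adjusted p = 0.0198) was no longer called without Axin1 replicate 2 or 3 and without wild-type replicate 1. Ccna2 (cyclin A2) and Ccnb2 (cyclin B2) were called with log2 fold changes of 0.29 and 0.25, and Ccnb2 held in 4 of 17 other settings. A pair of regulators did not pass. Cdc25b, another phosphatase of the same family, had 13.8, 14.8 and 14.8 RPKM in Axin1 libraries 1 to 3, against 13.3, 13.6 and 13.7 RPKM in wild-type libraries 1 to 3; its groups did not overlap, with a difference of 0.09 on the log2 scale (limma adjusted p = 0.307). Foxm1, the forkhead factor that activates many of the genes described here, had 17.6, 17.8 and 16.8 RPKM in Axin1 libraries 1 to 3, against 15.8, 19.0 and 17.4 RPKM in wild-type libraries 1 to 3. Its groups overlapped fully and their means were equal to 3 digits, 17.4 ± 0.491 RPKM in Axin1 and 17.4 ± 1.59 RPKM in wild type (SD, n = 3 each; log2 fold change 0.0032; limma, adjusted p = 0.98).

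Mitotic kinases and the chromosomal passenger complex, which corrects faulty attachments of chromosomes to the spindle, were called higher in 7 of 8 genes. Birc5 (survivin) and Cdca8 (borealin) are subunits that target this complex to centromeres. Birc5 had 106, 109.8 and 108 RPKM in Axin1 libraries 1 to 3, against 82.0, 86.8 and 86.1 RPKM in wild-type libraries 1 to 3. Its libraries agreed closely within each group, and it had a change of 0.34 on the log2 scale (SE 0.06; limma, adjusted p = 0.00581). Cdca8 had 53.3, 57.8 and 60.2 RPKM in Axin1 libraries 1 to 3, against 43.7, 38.6 and 43.9 RPKM in wild-type libraries 1 to 3, again with no overlap and a change of 0.43 on the log2 scale (SE 0.08; limma, adjusted p = 0.00681). Aurka, the kinase of centrosomes and spindle poles, had 29.2, 28.5 and 29.5 RPKM in Axin1 libraries 1 to 3, against 22.9, 24.0 and 25.4 RPKM in wild-type libraries 1 to 3. Its change of 0.26 on the log2 scale (SE 0.06; limma, adjusted p = 0.0203) was no longer called without Axin1 replicate 2 or 3, without wild-type replicate 1 and after the GC and length correction. The catalytic subunit Aurkb (0.26), the checkpoint kinases Bub1 (0.32) and Ttk (0.28) and the polo-like kinase Plk1 (0.24) were called with these log2 fold changes, and each held in 9 settings or fewer of 17. Incenp, the scaffold of the passenger complex, did not pass although its difference was among the larger ones: it had 39.9, 43.8 and 42.4 RPKM in Axin1 libraries 1 to 3, against 29.3, 23.5 and 41.2 RPKM in wild-type libraries 1 to 3. Wild-type library 3 reached the Axin1 range while wild-type library 2 was far below it. The log2 fold change was 0.45 (SE 0.17, limma adjusted p = 0.0847), and without wild-type replicate 3 it was 0.66 (limma adjusted p = 0.00915).

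**Figure D2:**
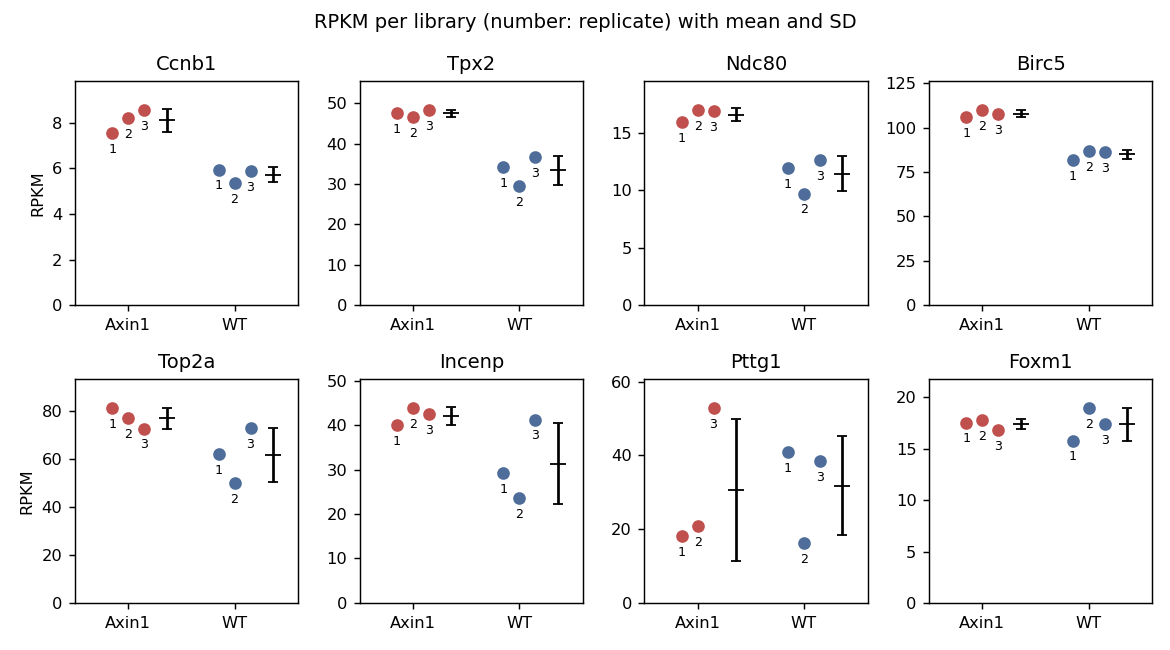
RPKM of 8 mitosis genes in each library (points, numbered by replicate), Axin1 left and wild type right, with the mean and SD beside them on axes that start at 0. Ccnb1, Tpx2, Ndc80 and Birc5 have no overlap between the groups, Top2a and Incenp overlap through wild-type replicate 3, Foxm1 is level, and Pttg1 splits within both groups.

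Genes of the spindle checkpoint and genes tied to the anaphase-promoting complex were called higher in 4 of 6 cases. Ube2c, the E2 enzyme that loads ubiquitin for this complex, was the mitosis gene with the highest level: it had 106, 116 and 112 RPKM in Axin1 libraries 1 to 3, against 88.2, 86.6 and 88.8 RPKM in wild-type libraries 1 to 3. The groups were apart, with a change of 0.34 on the log2 scale (SE 0.06; limma, adjusted p = 0.00724). Mad2l1 and Bub1b encode checkpoint proteins (MAD2 and BUBR1) that hold back anaphase until chromosomes are attached. Mad2l1 had 30.8, 33.0 and 32.9 RPKM in Axin1 libraries 1 to 3, against 27.1, 28.0 and 26.3 RPKM in wild-type libraries 1 to 3. Its change of 0.24 on the log2 scale (SE 0.06; limma, adjusted p = 0.0257) was no longer called without Axin1 replicate 2 or 3, without wild-type replicate 1 or 3, and after the GC and length correction, where it was near 0.03. Bub1b had 48.6, 43.6 and 42.3 RPKM in Axin1 libraries 1 to 3, against 37.8, 34.7 and 38.8 RPKM in wild-type libraries 1 to 3. The change of 0.26 on the log2 scale (SE 0.08; limma, adjusted p = 0.0376) held in 5 of 17 other settings and was no longer called when any 1 library was left out. Cdc20, the activator that couples the checkpoint to the complex, was called with a log2 fold change of 0.25 and held in 6 of 17. Bub3, which carries BUB1 and BUBR1 to kinetochores, had 61.2, 64.4 and 66.2 RPKM in Axin1 libraries 1 to 3, against 63.5, 53.9 and 63.7 RPKM in wild-type libraries 1 to 3. Its groups overlapped and it did not pass (log2 fold change 0.09, limma adjusted p = 0.457).

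Pttg1 encodes securin, the inhibitor of separase that is destroyed at anaphase, and its spread within groups was the widest of the 42. It had 18.2, 20.8 and 52.9 RPKM in Axin1 libraries 1 to 3, against 40.8, 16.3 and 38.4 RPKM in wild-type libraries 1 to 3. Axin1 library 3 and wild-type libraries 1 and 3 were high and the remaining 3 libraries low, so the spread followed neither genotype nor replicate number (log2 fold change -0.11, SE 0.43, limma adjusted p = 0.868). In the authors' deposited table, which holds group means and no library values, Pttg1 had a mean normalized count of 1440.5 in Axin1 and 1174 in wild type, a log2 ratio of 0.30 (adjusted p = 0.114). RPKM and count means together imply a transcript length of 1148 bases in Axin1 and 868 bases in wild type, a ratio of 1.32. The row joins 2 RefSeq transcripts. Over the 42 mitosis genes, the 31 with a single transcript had the same implied length in both groups within 1%, as did 9 of the 11 with several; the exception besides Pttg1 was Kif20a, at a ratio of 1.01. The RPKM difference of Pttg1 therefore does not equal a difference in its reads.

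Kinetochore genes were called higher in 6 of 6 cases, with the highest median of the roles (0.42). The NDC80 complex, which grips the ends of spindle microtubules, contributed Ndc80, Nuf2 and Spc25. Ndc80 had 15.9, 17.0 and 16.9 RPKM in Axin1 libraries 1 to 3, against 11.9, 9.71 and 12.6 RPKM in wild-type libraries 1 to 3. This was the largest log2 fold change among the 42, a change of 0.51 on the log2 scale (SE 0.09; limma, adjusted p = 0.00796). Nuf2, its direct partner, had 24.3, 26.04 and 26.9 RPKM in Axin1 libraries 1 to 3, against 18.3, 17.7 and 20.3 RPKM in wild-type libraries 1 to 3, with a change of 0.44 on the log2 scale (SE 0.07; limma, adjusted p = 0.00565). Spc25, from the end of the complex that faces the centromere, had 47.9, 51.0 and 47.3 RPKM in Axin1 libraries 1 to 3, against 33.4, 37.2 and 39.4 RPKM in wild-type libraries 1 to 3. No Axin1 library of the NDC80 genes reached down into the wild-type range. The change of 0.40 on the log2 scale (SE 0.07; limma, adjusted p = 0.00876) of Spc25 was no longer called after the GC and length correction. The other kinetochore genes, with their log2 fold changes, were Cenpe, a motor that carries chromosomes to the spindle equator (0.45), Cenpf (0.36), which had the lowest level of the 42 at 7.40 RPKM in the Axin1 mean and 5.56 RPKM in the wild-type mean, and Cenpa (0.27), the histone H3 variant that marks centromeres.

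Among spindle motors and microtubule-binding proteins, 6 of 7 were called higher. Tpx2, which activates Aurora A and nucleates spindle microtubules, had 47.5, 46.6 and 48.2 RPKM in Axin1 libraries 1 to 3, against 34.2, 29.6 and 36.6 RPKM in wild-type libraries 1 to 3. The 3 Axin1 values lay close together and apart from wild type, with a change of 0.50 on the log2 scale (SE 0.08; limma, adjusted p = 0.00547). Hmmr, a microtubule-binding protein of spindle poles, had 15.8, 13.9 and 15.1 RPKM in Axin1 libraries 1 to 3, against 11.0, 11.5 and 12.4 RPKM in wild-type libraries 1 to 3. It had a change of 0.34 on the log2 scale (SE 0.07; limma, adjusted p = 0.0135), a call lost after the GC and length correction. Kif2c, a kinesin that takes microtubules apart at centromeres, had 19.3, 17.5 and 18.2 RPKM in Axin1 libraries 1 to 3, against 14.7, 12.8 and 15.0 RPKM in wild-type libraries 1 to 3, with no overlap and a change of 0.35 on the log2 scale (SE 0.08; limma, adjusted p = 0.0155). With log2 fold changes in brackets, the chromokinesin gene Kif4 (0.44), Kif15 (0.37), a motor that helps keep the spindle bipolar, and Nusap1 (0.32), a microtubule-bundling protein, were called as well, with 13, 5 and 10 of 17 settings holding. Kif11, the motor that pushes spindle poles apart, stood just short of the threshold. It had 18.8, 17.9 and 17.0 RPKM in Axin1 libraries 1 to 3, against 13.1, 11.1 and 16.6 RPKM in wild-type libraries 1 to 3, with no overlap between the groups but a wide wild-type spread (log2 fold change 0.39, limma adjusted p = 0.0527; 0.0376 with voom on recovered reads).

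Genes of the central spindle and cytokinesis were called in 5 of 6 cases. Prc1, which bundles the antiparallel microtubules of the central spindle, had 34.1, 32.7 and 33.2 RPKM in Axin1 libraries 1 to 3, against 25.8, 24.0 and 27.4 RPKM in wild-type libraries 1 to 3. It had a change of 0.36 on the log2 scale (SE 0.07; limma, adjusted p = 0.00819). Kif23 and Racgap1 form the centralspindlin complex, which recruits the exchange factor encoded by Ect2. Kif23 had 33.7, 31.3 and 32.02 RPKM in Axin1 libraries 1 to 3, against 25.0, 20.2 and 24.6 RPKM in wild-type libraries 1 to 3, with a change of 0.46 on the log2 scale (SE 0.09; limma, adjusted p = 0.00903). Ect2 had 13.3, 13.0 and 12.9 RPKM in Axin1 libraries 1 to 3, against 9.77, 9.997 and 11.3 RPKM in wild-type libraries 1 to 3. The change of 0.31 on the log2 scale (SE 0.07; limma, adjusted p = 0.0158) was no longer called without Axin1 replicate 2 and after the GC and length correction. Racgap1 and the kinesin gene Kif20a had log2 fold changes of 0.25 and 0.33 and were called, also in 12 and 9 of 17 other settings. Anln, which encodes the contractile-ring scaffold anillin, did not pass: it had 12.9, 11.5 and 10.6 RPKM in Axin1 libraries 1 to 3, against 9.71, 9.55 and 11.7 RPKM in wild-type libraries 1 to 3, where wild-type library 3 overlapped the Axin1 range (log2 fold change 0.17, limma adjusted p = 0.226).

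The 2 genes of the mitotic chromosome are widely used as markers of proliferation. Mki67, which coats mitotic chromosomes, had 35.6, 33.0 and 31.1 RPKM in Axin1 libraries 1 to 3, against 26.2, 24.7 and 27.8 RPKM in wild-type libraries 1 to 3. Its change of 0.33 on the log2 scale (SE 0.07; limma, adjusted p = 0.0167) was no longer called without Axin1 replicate 2. Top2a, the topoisomerase that untangles sister chromatids, had 81.1, 76.7 and 72.5 RPKM in Axin1 libraries 1 to 3, against 61.8, 49.998 and 72.7 RPKM in wild-type libraries 1 to 3. Wild-type library 3 stood level with Axin1 library 3, and the log2 fold change of 0.33, as large as that of Mki67, did not pass (SE 0.12, limma adjusted p = 0.0838), although it did without wild-type replicate 3 (0.46, limma adjusted p = 0.0261). By level per length, Ube2c, Birc5 and Top2a led in both groups, with means of 111, 108 and 76.7 RPKM in Axin1 and 87.9, 84.9 and 61.5 RPKM in wild type. Cenpf and Ccnb1 were lowest, Ccnb1 at 8.11 RPKM in Axin1 and 5.73 RPKM in wild type.

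Counting with strand is not stated, so reads of overlapping genes cannot be told apart from those of the mitosis gene. By GENCODE, exons of 10 of the 42 overlap exons of another gene, in 9 cases on the opposite strand: Kif20a overlaps Cdc23, Kif4 overlaps Pdzd11, Prc1 overlaps Rccd1, Ccna2 overlaps Exosc9, Nusap1 overlaps Oip5, Plk1 overlaps Gm44985, Ube2c overlaps Tnnc2, Cdc25b overlaps Spef1 and Cdc20 overlaps Elovl1. Foxm1 overlaps Tex52 and Gm44596 on its own strand. Ccnb1, Ccnb2 and Kif4 each have an annotated pseudogene of the same name, with which reads could have been shared.

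Beyond the 42, the same direction was seen in 91 further mitosis genes listed by complex. Of these 42 were higher and 0 lower by limma, where 14.4% and 8.37% of all genes were, with a median log2 fold change of 0.22; 86 of the 91 had a log2 fold change above 0. Those called with the largest rises were Cenpk and Cenpp, of the inner kinetochore, and Smc4, of condensin. Cenpk had 8.13, 8.03 and 8.39 RPKM in Axin1 libraries 1 to 3, against 5.54, 5.25 and 4.69 RPKM in wild-type libraries 1 to 3, with a change of 0.58 on the log2 scale (SE 0.07; limma, adjusted p = 0.00131). Cenpp and Smc4 had log2 fold changes of 0.52 and 0.50. By complex, 14 of 22 other kinetochore genes, 10 of 19 spindle and cytokinesis genes, 4 of 8 condensin genes, 7 of 16 regulators, 4 of 12 cohesin and separase genes and 3 of 14 genes of the anaphase-promoting complex were called higher. Cenpm went the other way (log2 fold change -0.18, limma adjusted p = 0.0604), and it was called lower with either rescaling of the libraries (-0.23 and -0.22), after the GC and length correction (-0.24) and with a pseudocount of 10 (-0.12). Of 38 DNA replication genes, 21 were higher and 0 lower by limma, with a median of 0.24, led, by p, by the clamp gene Pcna (log2 fold change 0.54), Gins1 (0.68) and Rrm2 (0.39); 13 were called with the median of ratios rescaling or after the GC and length correction, 9 without Axin1 replicate 2 and 8 without Axin1 replicate 3. Of the 91 further mitosis genes, the number called was 21 after the GC and length correction, 13 without Axin1 replicate 2, 22 without Axin1 replicate 3 and 24 without wild-type replicate 1. Over all genes tested, 9.99% were called higher with the median of ratios rescaling and 7.79% after the GC and length correction. That share was 4.71% without Axin1 replicate 2, 6.41% without Axin1 replicate 3 and 9.49% without wild-type replicate 1. Whether the share of genes called differs between these lists was not tested.

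**Figure D3:**
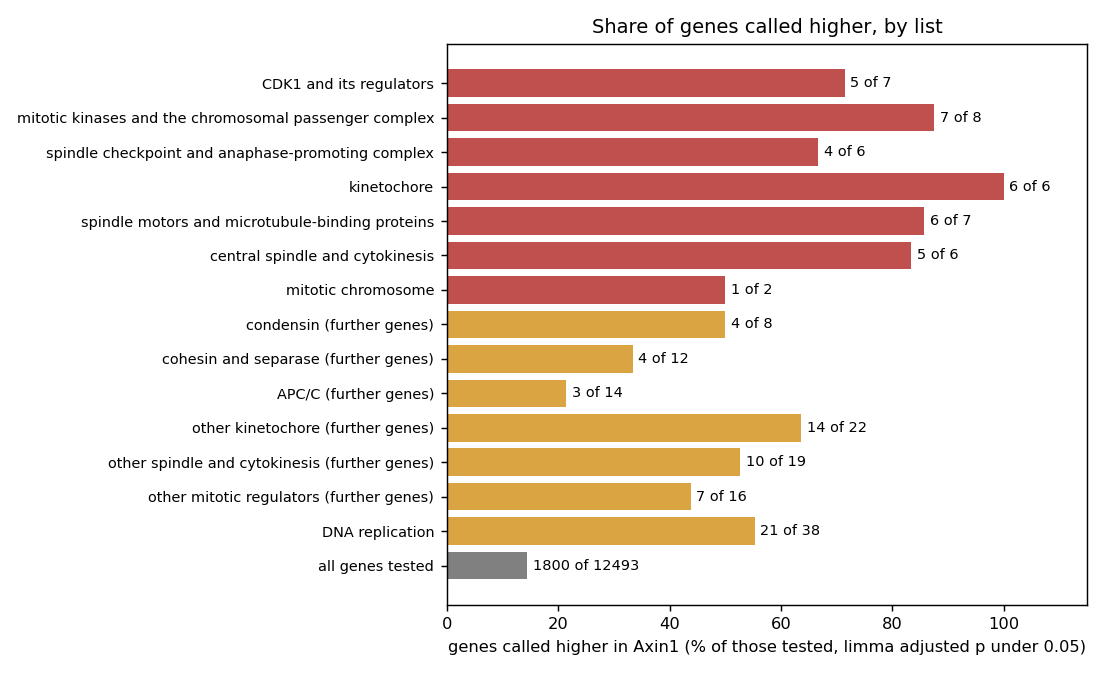
Share of genes called higher in Axin1 (percent of those tested, limma adjusted p under 0.05), with the counts beside each bar: the 42 mitosis genes by role (red), further mitosis genes by complex and DNA replication genes (yellow), and all genes tested (grey). Kinetochore genes of the 42 stand at 6 of 6 and the mitotic chromosome at 1 of 2, against 1800 of 12493 over all genes.

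Transcripts of neural progenitors rose in the same libraries, Sox2 and Pax6 with larger log2 fold changes than any of the 42 mitosis genes. Sox2, a transcription factor of neural stem cells, had 52.9, 64.6 and 57.0 RPKM in Axin1 libraries 1 to 3, against 35.7, 28.4 and 36.7 RPKM in wild-type libraries 1 to 3, a change of 0.78 on the log2 scale (SE 0.11; limma, adjusted p = 0.0031). Pax6, a factor of cortical radial glia, had 17.2, 18.1 and 15.8 RPKM in Axin1 libraries 1 to 3, against 10.6, 9.38 and 10.6 RPKM in wild-type libraries 1 to 3, a change of 0.69 on the log2 scale (SE 0.07; limma, adjusted p = 0.00085). Of 17 markers of neural progenitors and radial glia, 12 were higher and 0 lower by limma, with a median log2 fold change of 0.49 and a summed level of 2391 to 2501 RPKM in Axin1 libraries and 1855 to 2026 RPKM in wild-type libraries. Vim, Notch1 and Hes1 of that list are also expressed by endothelial cells, and Vim alone supplied 1461 to 1484 RPKM of the sum in Axin1 libraries and 1150.1 to 1186 RPKM in wild-type libraries. Without these 3 genes the sum was 861 to 953 RPKM in Axin1 libraries and 637 to 781 RPKM in wild-type libraries. Much of this sum was Nes, which was not called (limma adjusted p = 0.156). It had 487, 419 and 388 RPKM in Axin1 libraries 1 to 3, against 411, 353 and 356 RPKM in wild-type libraries 1 to 3. Whether endothelial cells express other genes of the list was not tested. None of the 17 was at 0 in any library. Sox2 and Pax6 had the largest log2 fold changes of the 17. The 5 not called were Hes1 (log2 fold change 0.22), Nes (0.20), Hes5 (0.05), Slc1a3 (0.05) and Notch1 (-0.22), all below the median of the 42 mitosis genes (0.33). Summed over the 42 mitosis genes, the level was 1481 to 1525 RPKM in Axin1 libraries and 1120 to 1298 RPKM in wild-type libraries. Embryonic erythroid markers summed to 414 to 775 RPKM in Axin1 libraries and 119.8 to 166 RPKM in wild-type libraries. Of the 12 listed, 5 of 5 tested were higher, and Hba-a1, Hba-a2 and Hbb-b1 were listed at 0 in all 6 libraries. The part of neural progenitors and erythroid cells in the change of the mitosis genes was not tested.

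The change of each mitosis gene was then set against that of Sox2 and of Pax6, by fitting limma to the difference of their log2(RPKM + 1) values within each library. Relative to Sox2 all 42 were below 0, and 36 were called lower and 0 higher. The median was -0.45, while it was -0.74 over all genes, of which 96.9% were called lower and 0.248% higher. Relative to Pax6, 37 were called lower and 0 higher (97.0% of all genes lower, 0.432% higher), with a median of -0.36 against -0.65 over all genes. The 6 not told apart from Sox2 were Ndc80 (difference -0.27, SE 0.17, limma adjusted p = 0.112), Tpx2 (-0.28), Cdc25c (-0.30), Kif23 (-0.31), Cenpe (-0.33) and Incenp (-0.33); all but Cenpe also missed the threshold against Pax6. Foxm1 (-0.77) and Pttg1 (-0.89) were furthest below Sox2. For Pttg1 the SE relative to Sox2 was 0.17, as for all 42, although the SE of its own change was 0.43. Its RPKM difference also does not equal a difference in reads, so its place is unsure. The p-values relative to either marker are too small. Every gene shares the 6 values of Sox2 (or Pax6), whose spread limma counts again in each gene. With the variance of each gene alone, 34 were called lower against either marker (92.3% and 93.1% of all genes). Without Axin1 replicate 2, 22 were called lower than Sox2, where 92.6% of all genes were. Within the wild-type group, library 2 was the lowest of its group for 30 of the 42 mitosis genes (71.4%) and 12 of the 17 neural progenitor markers (70.6%), Sox2 and Pax6 among them, while it was lowest for 38.4% of all genes tested. Wild-type library 3 was the highest of its group for 31 of the 42 (73.8%, and 31.0% of all genes) but for 6 of the 17 progenitor markers (35.3%), of which 8 were highest in wild-type library 1. Axin1 library 3 was lowest of its group for 12 of the 17 progenitor markers (70.6%) and 16 of the 42 mitosis genes (38.1%). It was lowest for 26.2% of all genes. Axin1 library 1 was lowest for 4 of the 17 (23.5%), 20 of the 42 (47.6%) and 52.0% of all genes. Without wild-type replicate 2, 24 of the 42 were called higher (11.1% of all genes), with a median of 0.28.

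**Figure D4:**
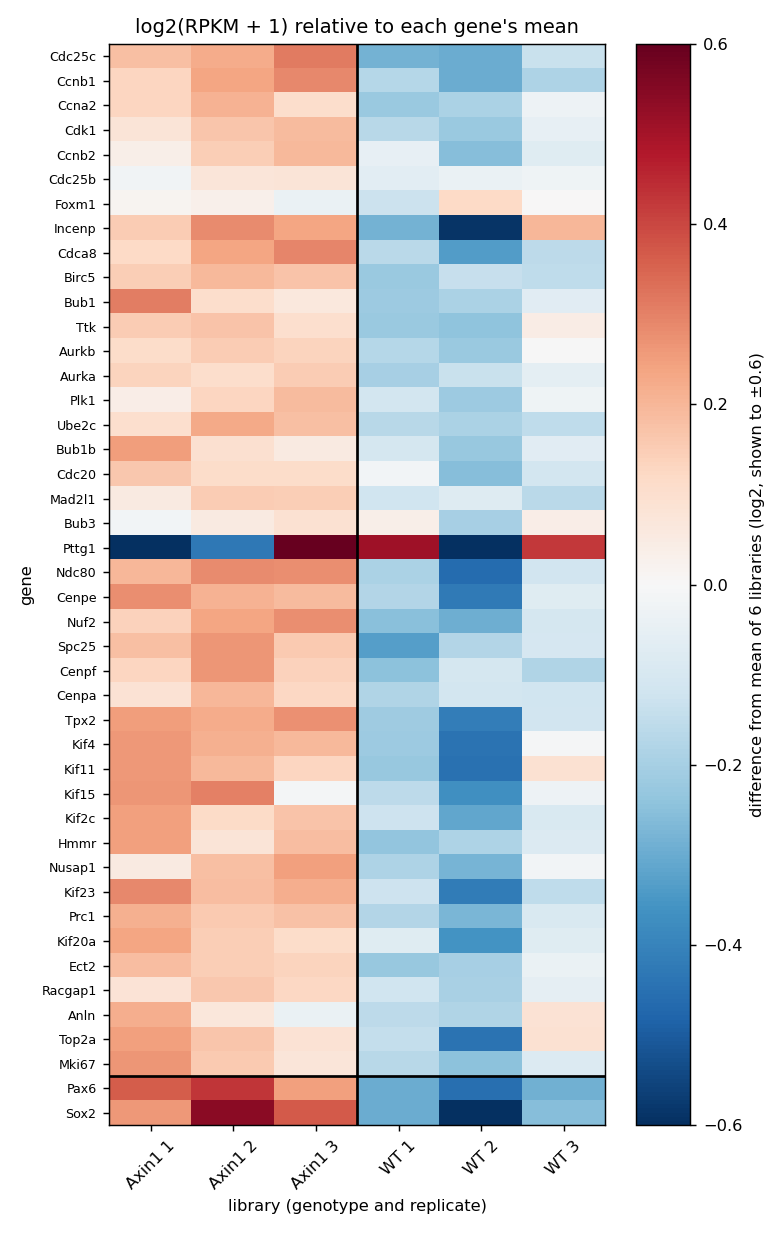
Difference of log2(RPKM + 1) from each gene's mean over the 6 libraries (colour, shown to ±0.6), for the 42 mitosis genes in order of role and, below the line, Pax6 and Sox2; columns are libraries, Axin1 left of the line and wild type right. Wild-type replicate 2 is the darkest blue for many rows, Sox2 and Pax6 included, and Pttg1 changes colour within both groups.

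**Figure D5:**
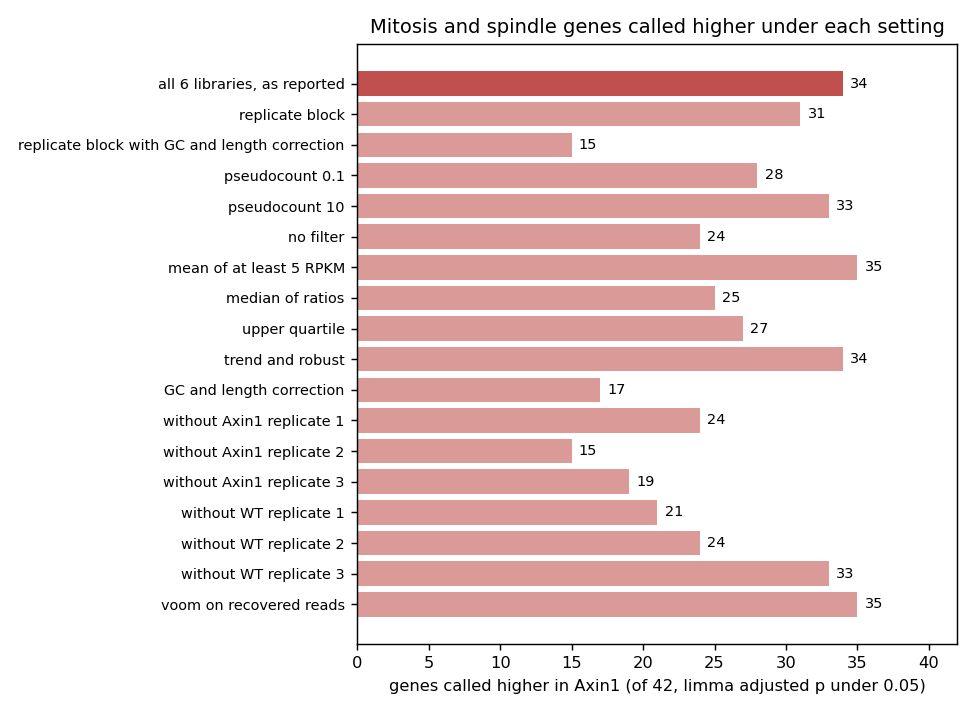
Number of the 42 mitosis genes called higher in Axin1 (limma adjusted p under 0.05) with all 6 libraries as reported and under each of 17 other settings. The counts run from 15, without Axin1 replicate 2 or with the replicate block and the GC and length correction, to 35 with voom on recovered reads or a mean of at least 5 RPKM.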

How the data were processed

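Polyadenylated RNA of 6 TRAP libraries (3 per group) was sequenced, per the labels' protocols. Bowtie, DESeq and mm9 are named, without versions, in the submitters' processing notes; counter, strand setting and filters are stated nowhere in the sources used here. The authors deposited 1 RPKM value per gene and library (the unit was settled from the values: for 11272 genes of a single transcript, the length implied was 0.994 of the annotated one at the median), the mean normalized count signal per group, and DESeq p-values, per the file headers. Genes detected in a single library showed which mean was of which group. Reads were recovered from RPKM and these means; 88.0% of all values, 99.99% of those of single-transcript genes and 31.5% of those of genes with several transcripts (11 of the 42 mitosis genes) were whole within 0.05 reads, so voom on recovered reads is approximate for genes with several. At 1 kb, 3 reads (the limit a count of 0 allows, for counting error only) came to 0.0484 to 0.142 RPKM.

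limma 3.58.1 (R 4.3.3) was run on log2(RPKM + 1) for 12493 genes averaging 1 RPKM or more, with genotype as the only factor; the scale understates changes of low genes. P-values rest on the spread between 3 libraries per group. An exact permutation test of 3 against 3 cannot go below 0.1 and was not used. The step was also run on simulated reads, in which every gene was given the same spread between replicates beyond counting error. Spread differed between genes in these data, so that run does not vouch for the calls. Lengths and GC content came from GENCODE vM21 (99.0% of tested genes, matched by RefSeq accession) and promoters from RefSeq GRCm38.p6. That build differs from mm9, so no coordinates of the files' features are given. Python 3.11.15, pandas 2.3.3, numpy 2.4.6 and matplotlib 3.10.9 were used.

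The genes and lists were chosen with earlier results of these data known. Genes named in full were the 3 of each role with the lowest limma p, plus those that did not pass; of the further lists, the 3 with the largest called rise or fall (mitosis) or the lowest p (DNA replication). Other genes were named after their values were seen. Alternatives were the replicate number as a block, pseudocounts of 0.1 and 10, a filter at 5 RPKM or none, 2 rescalings, trend and robust variances, voom on recovered reads, a loess correction for GC content and length (span 0.5), and leaving out each library. The authors' adjusted p and unshared variances were added after seeing the data.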

Additional observations from a re-analysis of the deposited data

How the results depend on the processing

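Over 17 alternatives for each of the 42 mitosis genes, 555 kept both direction and side of the threshold, 144 lost a call, 6 gained a call and 9 turned sign. The turned values all belonged to Foxm1 and Pttg1, which were not called. Foxm1 had log2 fold changes of -0.045 with the median of ratios and -0.032 with the upper quartile, and of -0.060 to 0.064 when a library was left out. Pttg1 had -0.58 to 0.17 when a library was left out. The count of mitosis genes higher was 34 as reported, 17 after the GC and length correction, 15 with the replicate block and that correction together, 19 by the authors' deposited adjusted p, and 15 to 33 when a library was left out. All genes higher numbered 1800 as reported, 973 after the correction, 727 with the block and the correction, and 589 to 1492 when a library was left out; lower genes numbered 1046 as reported and 465 to 933 then. Both counts were lowest without Axin1 replicate 2. Of further mitosis genes, 42 were higher as reported, 21 after the correction and 13 to 38 when a library was left out; 1 (Cenpm) was lower with a pseudocount of 10, either rescaling or the correction. DNA replication genes higher were 21 as reported, 13 with the median of ratios, 13 after the correction and 8 to 17 when a library was left out. Mitosis genes lower relative to Sox2 were 36 as reported, where 96.9% of all genes were lower, and 22 to 35 when a library was left out. The 22 were without Axin1 replicate 2, where 92.6% of all genes were lower. With voom on recovered reads 35 mitosis genes were higher, where 16.2% of all genes were. The cause of these shifts was not tested, except that leaving out a library tests fewer samples. Whether samples of the same replicate number share more than the number was not settled. Their deviations from the group means correlated weakly, at 0.0785, 0.127 and 0.0593 for numbers 1, 2 and 3. Each library correlated best with its own number. With the replicate block, 31 mitosis genes were higher, where 12.7% of all genes were (losing Ccnb2, Kif15, Plk1 and Ttk and gaining Kif11). Relative to Sox2 and Pax6, 29 and 32 were lower with the block. Their medians there were -0.45 and -0.36, while those over all genes were further below 0, at -0.74 and -0.65. Without the block, 96.9% and 97.0% of all genes were called lower than these markers. The Axin1 libraries are the shallower ones, which limits the precision of low genes most in Axin1 replicate 3.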

Other observations

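Markers of other cell types were read in the same libraries. Of 9 neuronal markers, 4 were higher and 0 lower by limma (14.4% and 8.37% of all genes were), with a summed level of 571 to 589 RPKM in Axin1 libraries and 471 to 598 RPKM in wild-type libraries. Pericyte and smooth muscle markers had 4 of 8 tested lower (11 listed), at 22.9 to 30.4 RPKM summed over those listed in Axin1 libraries and 31.4 to 35.6 RPKM in wild-type libraries. Meningeal fibroblast markers had 2 of 10 lower, at 237 to 240.3 RPKM in Axin1 libraries and 216 to 335 RPKM in wild-type libraries. Microglia and macrophage markers had 1 of 7 tested higher (8 listed), at 22.0 to 39.8 RPKM in Axin1 libraries and 22.4 to 24.2 RPKM in wild-type libraries. Of 12 endothelial markers, 1 was higher, Emcn (log2 fold change 1.05), and 2 were lower, Tie1 (-0.31) and Esam (-0.24).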
